A study of Mus musculus with 2 samples.

Results

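The transcripts described here are new combinations of known splice sites, the class that the deposited tables label NIC (new in catalog). In such a read the introns are joined in an order that no annotated transcript has, although the splice sites themselves are on record. A NIC model of an annotated gene was taken as a member when its intron chain had 5 or more reads in one library and the same chain was read in the other. The chain is the set of all introns of the model, with its chromosome and strand. This gave 2032 members in 1351 genes, out of 30513 distinct NIC chains and 145646 distinct spliced chains in annotated genes. The members were therefore chosen by their reads and their label, and numbers that follow from that choice are given as a description.

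Adrenal glands of B6CASTF1/J females, 18 to 20 months old, were sequenced as long RNA reads. The strain is a first-generation cross of a laboratory strain and the wild-derived CAST strain. It has 1 group of 2 libraries, biological replicates 1 and 2, each made from total RNA of the gland, with no treatment and no second condition. Each library has a biosample of its own in the labels, with 1 donor entry in common. Reads of both parental alleles were set against mm10, which is built from 1 strain, and the part of allelic differences in the results was not tested. The libraries held 1412947 and 933963 reads on annotated genes, so 1 read is a larger share of the second library. Markers of the adrenal cortex took 75306 and 74832 CPM (reads of the list scaled to 1000000 annotated-gene reads) and those of the medulla 12037 and 9441 CPM. A skeletal muscle list was at 793 and 3.21 CPM and a fat cell list at 10063 and 6834 CPM, while kidney and liver lists stayed under 8 CPM. The muscle, endothelial, macrophage, kidney and liver lists held 0 members and the fat cell list held 2.

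During splicing the spliceosome cuts each intron at a donor site at its 5′ end and an acceptor site at its 3′ end, and most genes can use more than one set of sites. An exon can be skipped, an intron can be kept in the mature RNA, and first or last exons can be exchanged. Closely spaced acceptors, often 3 bases apart because each ends in the bases AG, are a common source of transcripts that differ by a single codon. A short-read library sees these choices one at a time, whereas a long read shows which of them occur together in 1 molecule. A shift of the reading frame or a kept intron often brings in an early stop codon, and transcripts with such a stop can be degraded by nonsense-mediated decay.

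Several of the most abundant members differ from an annotated transcript by a handful of bases, and the sequences around those bases show what kind of difference it is. All sequences are on the sense strand, taken from the GENCODE M21 transcripts on GRCm38 (mm10). In the antizyme genes Oaz1 and Oaz2 the capital marks 1 base that annotated models leave out as an intron of 1 base and that the member contains, at chr10:80828295 and chr9:65686272, both on the plus strand.
Oaz1: ctcggtggtgctccTgatgtccctcaccca
Oaz2: ctctgtggtgctccTgatgcccctcaccca
The base is the T of an in-frame TGA stop codon. Antizyme, the inhibitor of ornithine decarboxylase and so of polyamine synthesis, is made by a ribosome that shifts frame at this stop, and the annotated gap writes that shift as an intron.
The next set shows short annotated exons, in capitals, that the member lacks: Mpc1 on chr17:8296527-8296530, Sept7 on chr9:25265302-25265306 and Phb2 on chr6:124716425-124716430, all on the plus strand.
Mpc1: actatctcatgagTACTcacttctggggcc
Sept7: gcggcaccatggTTTGTcaaccgaagaacc
Phb2: aagttttactcgGGGAAGtgacagcctcat

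The third set holds the 5 members with the largest share of their gene among those that use annotated sites alone, differ by 3 bases at an acceptor and change the predicted protein. Capitals mark the 3 bases between both acceptors. They are present in the member of Ctbp1 (chr5:33248684-33248686, minus strand) and Mta3 (chr17:83762911-83762913, plus strand). They are absent from the member of Cars2 (chr8:11530425-11530427, minus), H2afy (chr13:56096232-56096234, minus) and Chtop (chr3:90503280-90503282, minus).
Ctbp1: gggctgcctacagCAGgtaccctccaggcg
Cars2: actgcagagccagCAGgtgactctgacaag
H2afy: ccggaagtctaagAAGaagcagggagaagt
Mta3: atgctaccagaagGAGactcagatgagagg
Chtop: aaaacttaagcagAAGagcttaaagcagcg
Each of these triplets ends in AG, the last bases before the downstream acceptor, where most introns end in AG. All members with a 3-base difference at an acceptor and known bases were then taken, whatever their sites or predicted protein. Their triplet ended in AG at 132 of 133 distinct sites (99.2%), and it was CAG at 92 (69.2%).

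The last set gives coding exons, in capitals with 12 bases of the neighbouring exons on each side, that members skip whole. They are on chr17:34804044-34804133 (minus) in Cyp21a1, chr10:88480815-88480946 (minus) in Chpt1, chr11:50168169-50168225 (plus) in Tbc1d9b and chr7:125910164-125910331 (minus) in Gsg1l. Their lengths of 90, 132, 57 and 168 bases are all multiples of 3, so the reading frame goes on after the skip.
Cyp21a1: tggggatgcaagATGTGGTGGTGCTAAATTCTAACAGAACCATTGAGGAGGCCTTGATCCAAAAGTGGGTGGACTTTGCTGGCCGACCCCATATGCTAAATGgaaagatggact
Chpt1: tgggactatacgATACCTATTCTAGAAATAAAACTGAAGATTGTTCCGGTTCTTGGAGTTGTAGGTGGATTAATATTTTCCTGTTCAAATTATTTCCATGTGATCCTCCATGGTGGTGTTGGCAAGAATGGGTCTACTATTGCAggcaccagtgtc
Tbc1d9b: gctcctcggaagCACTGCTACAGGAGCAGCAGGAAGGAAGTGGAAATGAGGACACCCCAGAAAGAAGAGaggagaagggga
Gsg1l: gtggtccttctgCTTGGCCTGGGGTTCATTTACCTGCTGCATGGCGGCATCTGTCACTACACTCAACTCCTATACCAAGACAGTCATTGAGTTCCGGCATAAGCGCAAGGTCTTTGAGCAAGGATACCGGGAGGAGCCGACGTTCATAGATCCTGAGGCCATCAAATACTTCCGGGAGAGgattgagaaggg

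Members took 35058 reads in replicate 1 and 23480 in replicate 2. That is 2.48% and 2.51% of annotated-gene reads, with an SD of 0.023 (n = 2). All NIC models together took 3.97% and 4.50%, or 4.24% ± 0.378 (SD, n = 2). The remaining NIC reads were spread thinly, since 69.6% and 72.4% of NIC models had a single read. At the edge of the rule, 382 members reached exactly 5 reads in their deeper library, with a median of 7 reads over both. Just outside it, 621 shared chains reached 4 reads, with a median of 6, and 129 chains had 5 or more reads in one library and 0 in the other. Protein-coding genes held 2008 of the members. A single member was found in 990 genes, 2 in 228 and 3 or more in 133.

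Each member was compared with every annotated transcript of its gene and put in 1 class. Exon skips, in which a new junction jumps over at least 1 whole annotated exon, made up 231 members (11.4%). Retained introns, in which an exon that is not itself annotated spans an annotated intron, made up 223 members. An internal exon annotated as a whole did not count, nor did an end exon where an annotated exon from the same splice site covers the intron. New exon joining, with neither event so defined, was the most frequent class with 1249 members (61.5%). Among these, 53 kept an intron of their nearest model inside an exon that another annotated transcript has or covers, as in Oaz1 and Oaz2. Of all 1249 members of this class, 1175 used only annotated junctions and exons and were new in the combination alone. Another 40 had a new junction with no whole exon inside, and 34 paired the ends of an exon anew. In all, 1429 members held no new junction, since every junction they use is annotated somewhere in the gene.

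The remaining 329 members (16.2%) go against the label, because they use at least 1 splice site that is not annotated in their gene. In 315 of them the site is in no annotated gene at all, and in 14 it is annotated only in another gene. The other library called the same chain NNC (new and not in catalog, the class for new splice sites) in 179 of these 329. Their 442 unannotated sites lay a median of 71 bases from the nearest annotated site of the gene, 133 of them (30.1%) within 10 bases and 215 over 100 bases away. These members are kept apart below as members with an unannotated site.

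**Figure D1:**
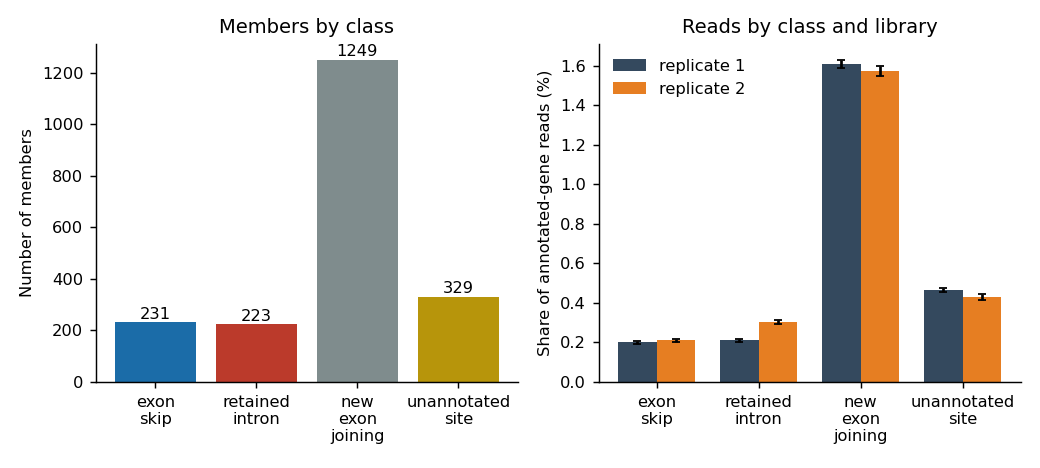
Left, the number of members in each class; right, the share of annotated-gene reads (%) that each class took in replicate 1 and replicate 2, with exact Clopper-Pearson 95% intervals. New exon joining leads with 1249 members, and retained introns are the class whose share is visibly higher in replicate 2 (0.304% against 0.210%).

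Most members are minor isoforms. The median member held 5.73% of its gene's reads, and 256 members held under 1%. Shares differed by class, with a median of 7.78% for new exon joining, 4.53% for exon skips, 3.99% for members with an unannotated site and 1.93% for retained introns. At the other end, 59 members held 50% or more on average. Among the 886 genes with members and at least 50 reads in each library, members together held 50% or more in both libraries in 32 genes and 90% or more in 4, namely Oaz1, Oaz2, Mpc1 and Phb2.

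The member of Oaz1 had the most reads of all, 1795 of 1902 reads of the gene in replicate 1 and 1238 of 1312 in replicate 2, which is 94.4% in both. Its mean level was 1298 ± 39.0 CPM (SD, n = 2). In Oaz2 the matching member had 488 of 535 and 197 of 237 reads, 91.2% (exact 95% interval 88.5 to 93.5) and 83.1% (77.7 to 87.7). Their nearest annotated models, the ones with the 1-base gap, had 0 reads in both libraries. Read without the frame shift, both members run into the TGA shown above and count as early stops in the prediction used here, a call that leaves the known shift out. NAD kinase 2 (Nadk2) also had a 1-base gap, and its member took 56.6% and 50.5% of the gene.

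The member of Mpc1, a subunit of the carrier that brings pyruvate into mitochondria, had 354 of 380 and 259 of 279 reads (93.2% and 92.8%). For Phb2, a prohibitin of the inner mitochondrial membrane, the counts were 321 of 344 and 191 of 218 (93.3% and 87.6%). Sept7, a cytoskeletal septin, had 202 of 224 and 99 of 116 (90.2% and 85.3%). In all 3 genes the exon-bearing annotated model had 0 reads in both libraries. Leaving out 4 or 5 bases moves the reading frame of Mpc1 and Sept7, while the 6 bases of Phb2 keep it.

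Annotated internal exons of up to 10 bases and introns of that size were missing from the reads in all genes. Of 290 annotated internal exons of 1 to 10 bases, 0 were read in either library, 41 of them in genes with at least 50 reads in each. Models with an internal exon of that size that is not annotated in their gene had 8 reads in replicate 1 and 19 in replicate 2. In such genes 18 of 108 exons of 11 to 20 bases were read (16.7%), 230 of 320 of 21 to 30 bases (71.9%) and 11449 of 12041 of 101 to 150 bases (95.1%). No model with an intron of 1 to 10 bases had a read, although 336 such introns are annotated in 242 genes. In 43 members of 24 genes the nearest annotated model had an exon of up to 20 bases that the member lacked.

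In 8 of those 43 members the exon bases lost were matched by an equal number of bases gained elsewhere. Hnrnpk, a nuclear RNA-binding protein of the hnRNP family, is the most abundant case. Its 9 members lack an annotated exon of 16 bases (chr13:58393853-58393868, minus), and 5 of them gain 16 bases elsewhere, at the end of the exon before it in the leading member. The other 4 gain from 0 to 41 bases. The leading Hnrnpk member had 339 of 1051 and 249 of 700 reads (32.3% and 35.6%), and the 9 members of the gene together held 82.6% and 81.1%. Txnrd2, the mitochondrial thioredoxin reductase, lacked an exon of 7 bases and gained 12, and that member held 75.1% and 75.2%. Whether read alignment plays a part in these forms was not tested.

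**Figure D2:**
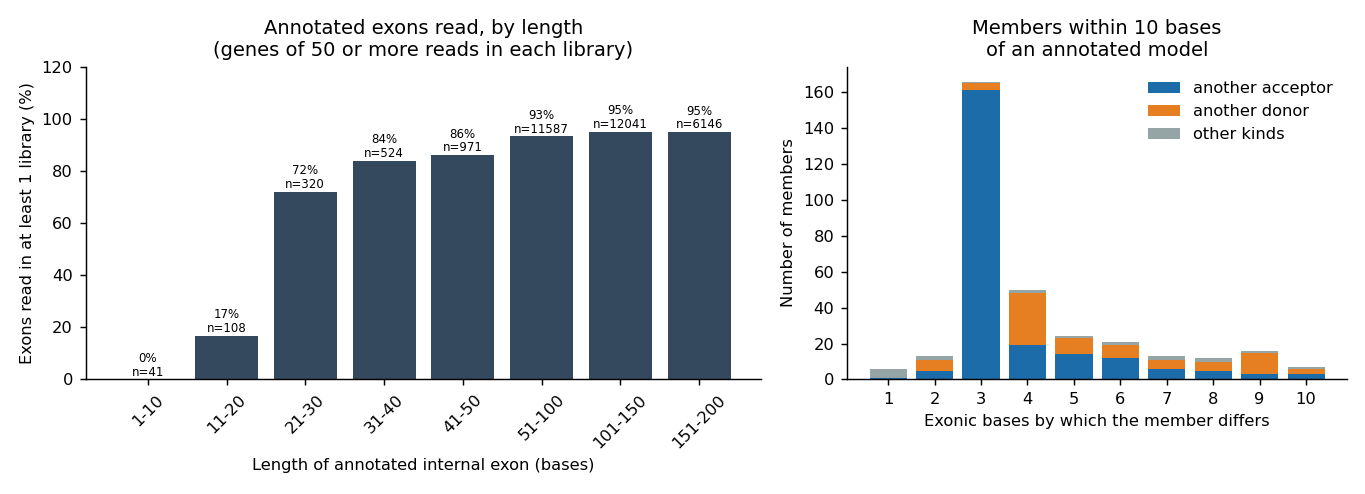
Left, the percentage of annotated internal exons read in at least 1 library by exon length in bases, in genes with 50 or more reads in each library, with the number of exons above each bar; right, the number of members that differ from an annotated model by 1 to 10 exonic bases, split by another acceptor, another donor and other kinds. Of the annotated exons of 1 to 10 bases in these genes 0 were read, and 161 of the 166 members with a difference of 3 bases used another acceptor.

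Within 10 exonic bases of an annotated model lay 328 members (16.1%), against 8.18% of the NIC chains outside the rule. The size of that difference was uneven. Exactly 3 bases separated 166 members from their model, 161 through another acceptor, whereas 50 members differed by 4 bases, 29 of them through another donor. Among the members that differed by 3 bases, 109 were predicted to encode a new protein, 36 an annotated one and 4 to stop early. At 4 bases those numbers were 5, 18 and 14.

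Ctbp1, a transcriptional corepressor, gave 332 of 597 and 226 of 403 reads to its 3-base member (55.6% and 56.1%). Cars2, the mitochondrial cysteinyl-tRNA synthetase, gave 83 of 205 and 39 of 78. H2afy, which encodes the histone variant macroH2A, had 108 of 258 and 56 of 173 (41.9% and 32.4%). Mta3, a subunit of a chromatin remodelling complex, had 66 of 182 and 31 of 101, and Chtop, an mRNA export factor, had 40 of 141 and 26 of 80. In each of these genes the 3-base choice is annotated, but not together with the rest of the chain. These 5 were picked by their share after the values were known.

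Other members joined annotated exons over longer distances. Compared with the nearest annotated model, 604 members had another donor, 487 another acceptor, 406 skipped an exon of that model, 392 had another first exon, 238 kept an intron, 222 added an exon and 135 had another last exon. More than one kind of change was present in 452. Cyb561, the electron carrier of the chromaffin granule membrane, had a member with another first exon at 384 of 767 and 180 of 429 reads (50.1% and 42.0%), with an annotated protein. Cd47, a cell surface protein that inhibits phagocytosis, had 309 of 520 and 220 of 347 reads (59.4% and 63.4%) on a member without an annotated exon of 29 bases near its end.

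Ndufs1, the largest subunit of respiratory complex I, had 145 of 1030 and 93 of 527 reads (14.1% and 17.6%) on a member with an added exon of 104 bases and an annotated protein. In Hmgcs1, a cytosolic enzyme of cholesterol synthesis, a member with an exon lengthened by 99 bases took 4.08% and 5.17%. Tpm3, a tropomyosin of the actin cytoskeleton, had 29 of 370 and 15 of 161 reads on a member without a 79-base exon of its nearest model. None of these members passed the test between libraries described below.

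**Figure D3:**
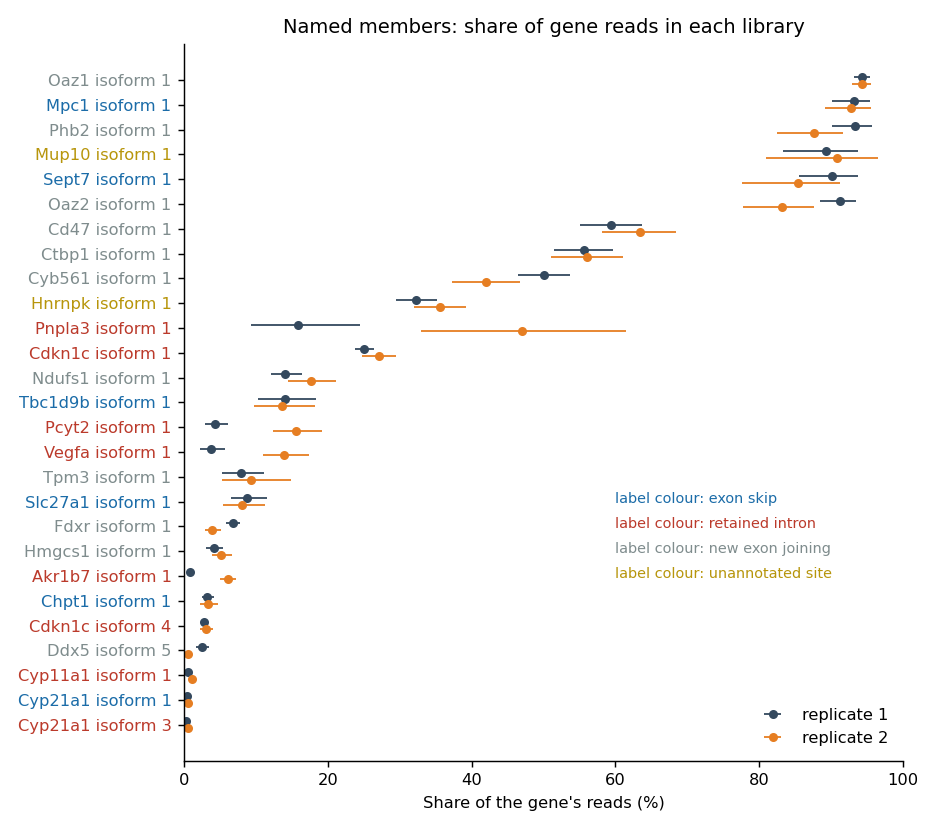
Share of the gene's reads (%) held by each named member in replicate 1 and replicate 2, with exact Clopper-Pearson 95% intervals. The number after a gene ranks its members from the highest mean CPM, and label colour gives the class. The Oaz1, Mpc1, Phb2, Mup10, Sept7 and Oaz2 members hold over 80% in both libraries, and the retained-intron members of Pnpla3, Pcyt2, Vegfa and Akr1b7 sit clearly higher in replicate 2.

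The exon-skip members held 219 distinct new skip junctions. For 212 of them an annotated model uses both outer ends, and 181 of these skip 1 exon, 20 skip 2 and 11 skip 3 or more. The single skipped exons had a median length of 111 bases (3 to 959), near the 116 bases of annotated internal coding exons in read transcripts. Of the 136 single skips that lay inside the coding part, 76 (55.9%) removed a multiple of 3 bases, beside 39.0% of 61046 annotated internal coding exons. Over all models of the gene, the skip junction took a median of 5.22% of the reads that chose between it and a competing junction, at 194 junctions with enough reads. At 9 junctions it took 50% or more and at 31 under 1%.

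Cyp21a1, the 21-hydroxylase of corticosteroid synthesis, had 75 of 22039 and 85 of 16754 reads on the member without the 90-base exon shown above (0.340% and 0.507%). Chpt1, which makes phosphatidylcholine, used its 132-base skip in 130 reads against 1567 with a competing junction in replicate 1 and in 52 against 752 in replicate 2 (7.66% and 6.47%). The skip in Tbc1d9b, a protein with a Rab GTPase-activating domain, was at 26.6% and 22.6% of such reads. In Gsg1l, an auxiliary subunit of AMPA receptors, 37.8% and 42.0% of reads skipped the 168-base exon. The skip in the protein kinase gene Prkd1, of 24 bases, was at 72.7% and 68.4%, on few reads (16 against 6 and 13 against 6). Gsg1l and Prkd1 were chosen after their values were seen.

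Both 11-beta-hydroxylase genes of the cortex also had in-frame skips at low share. In Cyp11b1 a 189-base exon was skipped in 0.129% and 0.191% of reads, and in Cyp11b2, the aldosterone synthase gene, a 204-base exon in 1.85% and 1.62%. These genes are close copies of each other, so a read can be given to the wrong one. The fatty acid transporter gene Slc27a1 had a skip outside the coding part with 47 of 535 and 29 of 362 reads (8.79% and 8.01%). Its host transcript with the skipped exon had 0 reads in both libraries.

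The retained-intron members kept 187 distinct annotated introns in 140 genes. Their median length was 319 bases, against 1279 bases for introns of read annotated transcripts. For 67 of them another annotated exon already covers the intron. To measure each intron over the whole gene, spliced reads that kept it were counted against reads that removed it, with unspliced models left out. At 176 introns with at least 20 such reads in each library, the median kept share was 3.27% in replicate 1 and 7.84% in replicate 2.

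Retained-intron members were higher in replicate 2 as a class, with 0.210% of annotated-gene reads in replicate 1 and 0.304% in replicate 2, a ratio of 1.45. The corresponding ratio was 1.05 for exon skips, 0.978 for new exon joining and 0.925 for members with an unannotated site. A single member of Cdkn1c, described below, gave 1044 of the 2965 retained-intron reads in replicate 1 and 377 of 2839 in replicate 2. That member was at 739 CPM in replicate 1 and 404 CPM in replicate 2, so its reads lower the ratio of 1.45. The kept share was higher in replicate 2 at 153 of the 176 introns and lower at 19. Annotated introns as a whole gave the background: of 49543 with enough reads, 6904 were kept more in replicate 2 and 3355 more in replicate 1, which is 67.3% of those that differed. Among the 4261 introns with kept reads in both libraries and shares under 50%, that figure was 76.7%, and their median share was 1.79% and 3.23%. As the rule asks for reads in both libraries, the latter set is the closer one. It was not held to the rule's read minimum in either library, however. Taken alone, replicate 2 let 181 retained-intron chains pass that minimum and replicate 1 let 142 pass. The part of the rule in the ratio of 1.45 and in the 153 of 176 introns was not tested, so both are a description. The difference between the sets of annotated introns and the members' introns was not tested either.

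Other signals moved in the same direction. Annotated transcripts of the retained-intron type took 0.676% and 0.955% of reads (ratio 1.41), and models labelled genomic within annotated genes took 3.54% and 5.87% (ratio 1.66). Malat1, a noncoding RNA that stays in the nucleus, took 0.157% and 0.406%. The part of nuclear RNA, genomic DNA or tissue makeup in the shift of retained introns was not tested. With 1 group and 2 libraries, a difference between them cannot be told apart from one between glands, extractions or library preparations.

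**Figure D4:**
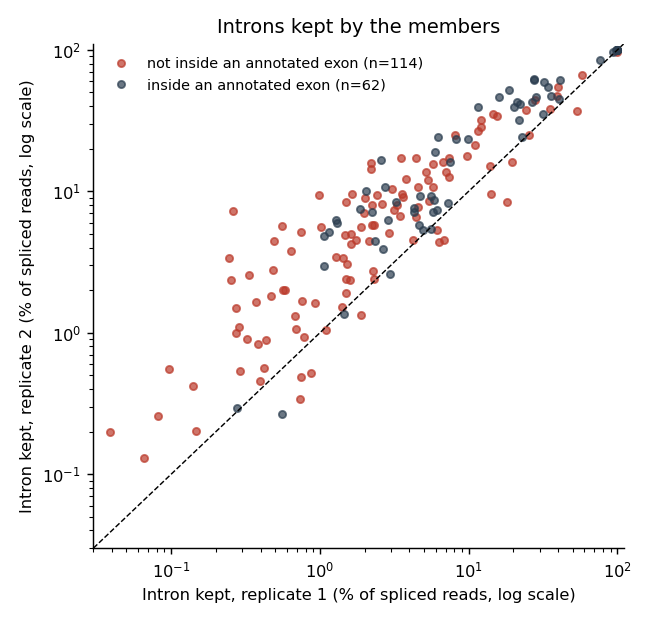
Each point is an annotated intron kept by at least 1 member; axes give the percentage of spliced reads that kept it in replicate 1 and replicate 2, both on log scales, and the dashed line marks equal shares. Of the 176 introns, 153 lie above the line, among introns inside an annotated exon and those outside one.

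The share of each isoform within its gene was compared between the libraries with a two-sided Fisher's exact test on the reads, adjusted by Benjamini-Hochberg over all 15340 isoforms tested. The test compares these libraries and covers counting error only. Calls numbered 330 over the whole table (2.15%), of which 161 had the larger share in replicate 2 (1.05%) and 169 in replicate 1 (1.1%). Among isoforms read in both libraries, as members must be, 2.03% were called. Of the members 1350 could be tested and 22 were called (1.63%), 20 with the larger share in replicate 2 and 2 in replicate 1.

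The calls were uneven by class. Of 127 retained-intron members 14 were called, all higher in replicate 2, and 109 of the 127 had a difference above 0. As the rule takes 5 reads in either library, such members can enter through replicate 2, where they are high. By 1 library alone, 181 retained introns passed in replicate 2 and 142 in replicate 1. Their counts by direction are therefore a description. Of 148 exon-skip members 0 were called by Fisher's exact test, with 9 at an unadjusted p under 0.05, and their differences split evenly, 74 up and 74 down. New exon joining had 7 of 847 called, 5 of them larger in replicate 2 and 2 in replicate 1, and 1 of 228 members with an unannotated site was called. Over all isoforms tested the median difference was -0.147 percentage points, with 7058 above 0 and 8048 below. When incomplete splice matches and genomic models were left out, 44 members were called, 29 of them higher in replicate 2, and 17 of 20 called retained introns were higher there. That setting also dropped a member's own reads in a library that gave it such a label. In 67 members 1 library had the label of an incomplete splice match, so a call among them can follow from the label alone. The exact binomial test of read numbers gave 79 calls with edgeR TMM scaling, 46 higher and 33 lower in replicate 2, and 77 with DESeq2 size factors, 46 higher and 31 lower. Under each, 3 exon-skip members were called, and 20 of 22 called retained introns were higher in replicate 2.

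New junctions of the members were tested in the same way against competing junctions that share their donor or acceptor. Of 64560 junctions tested in all genes, 23 were called (0.0356%). Among 223 new junctions of members outside the unannotated class, 0 were called by Fisher's exact test, with 8 at an unadjusted p under 0.05. With incomplete splice matches left out, 1 of 220 was called.

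The largest called differences were in retained-intron members. Pnpla3, a lipid droplet protein, had 16 of 101 reads in replicate 1 and 24 of 51 in replicate 2 on its member, or 15.8% and 47.1% (adjusted p = 0.00744, Fisher's exact test). The intron spanned there was removed in 0 and 1 reads, so it was hardly spliced in either library. This call was lost when no read minimum was set (adjusted p = 0.0723) and in both binomial tests (0.119 and 0.118).
Pcyt2, an enzyme of phosphatidylethanolamine synthesis, had 29 of 678 and 72 of 462 reads, or 4.28% and 15.6% (adjusted p = 3.82e-08, Fisher's exact test). Over all spliced reads its 379-base intron (chr11:120612084-120612462) was kept in 15.98% and 46.54%. Vegfa, the growth factor of the adrenal sinusoids, had 19 of 512 and 69 of 495 reads, or 3.71% and 13.9% (adjusted p = 1.62e-06, Fisher's exact test). Its 826-base intron (chr17:46024521-46025346) was kept in 12.1% and 28.5% of spliced reads.

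Called retained-intron members, all higher in replicate 2, included genes of both adrenal endocrine tissues. Akr1b7, an aldose reductase of the adrenal cortex, had 34 of 4015 and 112 of 1859 reads, or 0.847% and 6.02% (adjusted p = 1.65e-26, Fisher's exact test). Its 1048-base intron (chr6:34416235-34417282) was kept in 0.983% and 9.38% of spliced reads. Cyp11a1, the side-chain cleavage enzyme that starts steroid synthesis, had 132 of 27214 and 182 of 17278 reads, or 0.485% and 1.05% (adjusted p = 3.62e-09, Fisher's exact test). Its 478-base intron (chr9:58025607-58026084) was kept in 1.76% and 4.55%. Th, the rate-limiting enzyme of catecholamine synthesis in the medulla, had a called member with 23 of 2153 and 41 of 954 reads (1.07% and 4.30%) that keeps 3 introns. Further called retained-intron members belonged to Alas1, Slc25a3, Dld, Lonp1, Akr1b8 and Cyp11b1, with differences from 0.108 to 5.59 percentage points.

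The 2 members that were lower in replicate 2 belong to new exon joining. Fdxr, the reductase that passes electrons to the mitochondrial steroid hydroxylases, had 187 of 2783 reads in replicate 1 and 50 of 1287 in replicate 2 on a member whose exon is 54 bases shorter at an acceptor. The share fell by 2.83 percentage points, from 6.72% to 3.89% (adjusted p = 0.0179, Fisher's exact test), a call lost with no read minimum (adjusted p = 0.175). Ddx5, an RNA helicase of transcription and splicing, had 30 of 1236 and 6 of 1299 reads on a member with another first exon, 2.43% and 0.462% (adjusted p = 0.00354, Fisher's exact test).

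The highest retained-intron member by level was one of Cdkn1c, the imprinted inhibitor of cyclin-dependent kinases, at 571 ± 237 CPM (SD, n = 2). It had 1044 of 4173 reads in replicate 1 and 377 of 1391 in replicate 2, 25.02% and 27.10%. The annotated intron of 72 bases behind its class (chr7:143460027-143460098, minus) was kept in 99.9% and 99.7% of spliced reads, so this intron was almost never removed. What sets the member apart from its nearest annotated model is a donor that makes its exon 36 bases longer. The gene had 15 members, which together took 57.8% and 57.1% of its reads.

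The predicted protein of each member was read from the annotated start codon of its gene. Of 1704 members with a call, 34.6% kept an annotated protein, 38.2% gave a new protein and 27.2% met an early stop, a stop codon more than 50 bases ahead of the last junction. Retained introns stopped early in 116 of 128 (90.6%). Exon skips gave a new protein in 123 of 202 (60.9%) and an early stop in 24.8%. New exon joining kept an annotated protein in 482 of 1174 (41.1%) and stopped early in 20.95%. NIC chains outside the rule stopped early in 48.9% and annotated transcripts under the same read rule in 2.83%, the latter by construction being mostly annotated proteins. The bases of introns were not at hand outside annotated exons, and 82 retained-intron members were without a call for that reason.

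**Figure D5:**
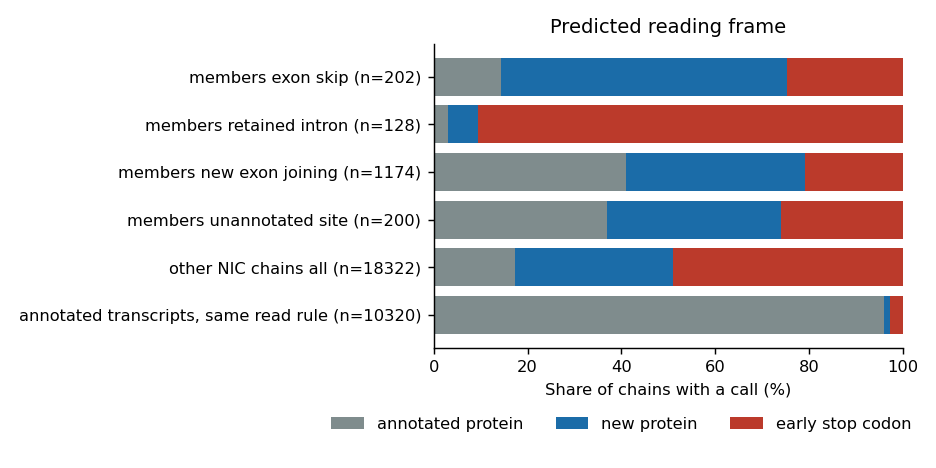
Share (%) of chains with an annotated protein, a new protein or an early stop codon, for the members by class, other NIC chains and annotated transcripts under the same read rule, with the number of chains with a call beside each name. The bar of retained introns is mostly early stops (90.6%) and that of exon skips mostly new proteins (60.9%).

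Members were unevenly spread over gene groups of the gland. Steroid synthesis genes held 76 members in 13 of 21 genes, 30 of them retained introns, yet these took only 1.32% and 1.71% of the group's reads. Of the 61 that were tested 5 were called, in Akr1b7, Cyp11a1, Cyp11b1 and Fdxr, beside 2.15% of all isoforms. The rule counts reads, so a deeply read gene can pass it with a small share. Genes of this list had 117478 and 76727 reads. Their members had a median share of 0.0748%, against 5.73% over all members. Cyp21a1 alone had 31 members, more than any other gene, at 2.83% and 3.32% of its reads in all. Cyp21a1 lies beside its near-identical pseudogene and C4 copies, so its counts are uncertain. Genes of the chromaffin cell held 26 members in 5 of 26 genes, with 1 of 21 tested called, in Th. Of these members, 10 belong to Pam, which amidates neuropeptides, at 33.3% of its reads in both libraries.

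Splicing factors of the SR and hnRNP families held 47 members in 21 of 43 genes. These took 14.9% and 14.4% of the group's reads, much of it from Hnrnpk, and 0 of 30 tested were called by Fisher's exact test and 1 by each binomial test. Imprinted genes held 24 members in 3 of 25 genes at 29.4% and 21.4% of reads, again with 0 of 24 called by Fisher's exact test. Cdkn1c alone gave 15 of them, with 2412 of the 2474 member reads in replicate 1 and 794 of 874 in replicate 2. Within Cdkn1c the member share was 57.8% and 57.1%, so the figures of the group mostly follow the reads of this gene. The binomial tests of read numbers called 4 of these 24, all lower in replicate 2. Cholesterol supply genes held 15 members in 10 of 28 genes (2.05% and 2.35%), respiratory complex genes 15 in 10 of 55 (0.820% and 0.776%), and actin, tropomyosin and clathrin genes 4 in 3 of 34 (0.755% and 0.703%). None of the 13, 5 and 4 members tested in those last 3 groups was called by Fisher's exact test, and each binomial test called 1, 1 and 0.

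A few members with an unannotated site held large shares. Srd5a2, a steroid 5-alpha-reductase, had 42 of 115 and 110 of 242 reads (36.5% and 45.5%) on a member with an intron of 59 bases of which neither end is annotated. Smdt1, a subunit of the mitochondrial calcium uniporter, had 153 of 329 and 105 of 234 reads on a member with an acceptor 7 bases from the annotated one. The member of Mup10, a major urinary protein, had 134 of 150 and 59 of 65 reads (89.3% and 90.8%) and an intron of 80547 bases that ends outside the gene. Major urinary protein genes are near-identical neighbours, so these reads cannot be placed with certainty. Srd5a2 and Smdt1 were picked after their values were seen.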

How the data were processed

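The authors deposited, per library, a table of transcript models with read counts and a model annotation. Per the file headers and accompanying text these counts are long reads per model on mm10 with GENCODE M21, in fields named as by TALON. The aligner, program versions and read filters are not given in the sources used here. Counts were used as deposited, and CPM is scaled to 1000000 annotated-gene reads. Intervals and adjusted p-values cover counting error only. Chains were matched by chromosome, strand and introns. Classes were assigned in the order unannotated site, retained intron, exon skip, new exon joining. The nearest annotated model had the fewest differing exonic bases, with outer ends trimmed to 25 bases. Share tests needed 20 gene reads in each library and 10 isoform reads over both, and calls an adjusted p under 0.05. Tests were checked on simulated libraries that differed by counting error and set changes alone. That check does not cover other variation between libraries.

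Members named were the 6 with the highest mean CPM in each class except that with an unannotated site, the 6 with the largest share in genes with 50 reads in each library, up to 3 called in each direction, and the top member of each gene list. Further members were named after their values were seen, among them those of Nadk2, Txnrd2, Th, Alas1, Slc25a3, Dld and Lonp1. Members, lists and tests were chosen with earlier results of these data known. The authors' counts were processed with Python 3.11.15, SciPy 1.17.1, statsmodels 0.14.6, edgeR 4.0.16 and DESeq2 1.42.0.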

Additional observations from a re-analysis of the deposited data

How the results depend on the processing

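The number of members followed the read minimum. With 3 reads there were 3559 members (460 exon skips, 438 retained introns, 2009 new exon joinings, 652 with an unannotated site), and with 10 reads 851 (80, 64, 575 and 132). Asking for 5 reads in both libraries left 1071 (105, 96, 687 and 183). One library alone, with no match asked, gave 1322 without replicate 1 (145, 181, 830 and 166 by class) and 1747 without replicate 2 (210, 142, 1152 and 243). When only annotated models read in these libraries served as reference, new exon joining fell to 324 members and 1140 had an unannotated site. Matching transcript ends, another class order, thinning replicate 1 and, as a choice made after seeing the data, leaving out members within 10 bases of a model kept every class count within 1.5 times. The NIC share of reads was 5.13% without incomplete splice matches and genomic models and 4.73% of spliced reads, and its range over single libraries was 3.97% to 4.50%.

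Calls of isoform shares over the whole table numbered 330, and 136 with no read minimum, 148 without incomplete splice matches and genomic models, 1419 with the binomial test on TMM and 1397 on DESeq2 size factors. For members the calls were 11, 44, 79 and 77 under those settings, the 44 with the reads of some members dropped by label in 1 library. Retained introns gave 8 with no minimum and 22 under both binomial tests, exon skips 2 without incomplete matches and 3 under both binomial tests. New exon joining gave 3, 16, 40 and 39. Members with an unannotated site gave 0, 6, 14 and 13, and 2 with at least 50 gene reads. The binomial tests compare read numbers, so they also carry the level of the gene. Of named members, Cdkn1c isoform 1 (log2 ratio of replicate 2 to 1 -0.94 on TMM, -0.93 on DESeq2 factors), Cdkn1c isoform 4 (-0.93 and -0.92) and Mup10 (-0.64 and -0.63) were called lower in replicate 2. Cyp21a1 isoform 3 was called lower there without incomplete matches (-0.36 percentage points, adjusted p = 1.32e-13, Fisher's exact test). Replicate 2 labels this chain an incomplete splice match, so that setting removed its 83 reads there and made the call. Not called in the share test but called in both binomial tests were Oaz2 isoform 1 (-0.77 and -0.76), Cyb561 isoform 1 (-0.56 and -0.55), Cyp21a1 isoform 1 (0.71 and 0.72) and Cyp21a1 isoform 3 (0.84 and 0.85). Junction calls were 55 without incomplete splice matches, 1 of them a new junction of a member. Introns kept more in replicate 2 were 100 of 114 outside annotated exons and 132 of 153 without steroid genes, Cyp21a2-ps and C4 copies, 2 choices made after seeing the data. Apart from the removal of reads by label, the cause of these changes was not tested. No paired analysis was possible because the series has 1 group. Tests between libraries could not be repeated without a replicate, since each needs both. Chains with few reads limit the rule, as 1 read in the second library decides membership.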
